A study of Mus musculus with 8 samples.

Results

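The Eph receptors with their ephrin ligands and the semaphorins with their plexin receptors, the main families of contact and guidance signals, were read across MCa-P1362, a mouse mammary adenocarcinoma line. Members were taken by symbol, as every gene named Epha or Ephb with a number, Efna or Efnb with a number, Sema with a class number and a letter, or Plxna to Plxnd with a number. This gave 51 of the 24421 genes in the files, with 14 Eph receptors, 8 ephrins, 20 semaphorins and 9 plexins. The line came from a tumour that arose by itself in a female Balb/c mouse, and its cells were grown in glucose-rich DMEM with fetal bovine serum and separated in a cell sorter by EpCAM, a surface adhesion protein of epithelial cells. RNA of 8 libraries was sequenced, 2 for each of 4 groups: monoculture EpCAM+, monoculture EpCAM-, coculture EpCAM+ and coculture EpCAM- cells. No allele, drug or engineered construct is named for any group. The protocol gives 2 handlings, freezing right after the sort and freezing after further growth with a passage, and does not tie either to the words monoculture and coculture. Nothing states that the 2 libraries of a group came from separate cultures, so the p-values rest on a spread between libraries that may be technical only.

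Eph receptors are tyrosine kinases that bind ephrins on a touching cell and signal in both cells. Ephrin-A ligands are held in the membrane by a lipid anchor and ephrin-B ligands span it. EphA receptors mainly bind ephrin-A and EphB receptors mainly ephrin-B, and in epithelia the pair sets borders between cell populations and tunes adhesion. Semaphorins are secreted (class 3), membrane-spanning (classes 4 to 6) or lipid-anchored (class 7) ligands. Their receptors, the plexins, act on small GTPases and the cytoskeleton, and most class 3 semaphorins also need a neuropilin.

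Values are FPKM, which scales fragments by transcript length and library depth, so levels of different genes are compared here per length. FPKM summed to between 387489 and 414612 per library. The depth in reads is unknown, and low values placed the libraries at 0.911 to 1.16 times the depth of the first monoculture EpCAM+ library. The sort label was borne out at Epcam, with 129 and 133 FPKM in monoculture EpCAM+ against 0.225 and 0.260 FPKM in monoculture EpCAM- cells, and with 199.9 and 202 FPKM in coculture EpCAM+ against 0.341 and 0.359 FPKM in coculture EpCAM- cells. All 10 epithelial markers and all 12 mesenchymal markers read were above 0 in every group. The EpCAM+ libraries held the mesenchymal markers at a median of 0.116% and 0.131% of their EpCAM- level in monoculture, and at 1.71% and 1.70% in coculture. The EpCAM- libraries held the epithelial markers at 0.170% and 0.211% of their EpCAM+ level in monoculture, and at 0.256% and 0.266% in coculture. The 7 endothelial markers summed to 0.147 to 1.25 FPKM per library and Cldn5 was listed at 0 throughout, and the 7 leukocyte markers summed to 0.691 to 1.43 FPKM with Cd3e at 0 throughout. The 8 Schwann and neural markers summed to 7.16 to 9.32 FPKM in EpCAM+ libraries, nearly all of it Mbp, and to 2.97 to 4.48 FPKM in EpCAM- libraries, most of it Tubb3. In bulk RNA, fewer cells of a type and less RNA per cell cannot be told apart.

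Summed over members, the EpCAM+ cells held more Eph receptor and ephrin RNA, per length, than the EpCAM- cells in both cultures. The 2 fractions drew on different semaphorins. Eph receptors summed to 292 ± 3.3 FPKM in monoculture EpCAM+ against 74.4 ± 0.92 FPKM in monoculture EpCAM- cells, and to 239 ± 1.8 FPKM in coculture EpCAM+ against 44.3 ± 0.57 FPKM in coculture EpCAM- cells (mean and SD of 2 libraries). One gene, Epha2, made up 59.8% of the Eph receptor sum in monoculture EpCAM+ and 30.5% in monoculture EpCAM- cells, with 47.4% in coculture EpCAM+ and 31.8% in coculture EpCAM- cells. Ephrins summed to 136 ± 0.64 FPKM in monoculture EpCAM+ against 40.7 ± 1.0 FPKM in monoculture EpCAM- cells, and to 123 ± 2.2 FPKM in coculture EpCAM+ against 60.5 ± 0.22 FPKM in coculture EpCAM- cells. Efnb2 led this sum in all groups, at 34.6% to 58.3% of it. By class, ephrin-A made up 65.1 FPKM in monoculture EpCAM+ against 6.73 FPKM in monoculture EpCAM- cells, and ephrin-B 71.2 against 33.9 FPKM. In coculture ephrin-A was again higher in EpCAM+ cells, at 75.1 against 7.35 FPKM. Ephrin-B was lower there in coculture, at 47.6 FPKM in EpCAM+ against 53.1 FPKM in EpCAM- cells. Plexins summed to 214 ± 2.6 FPKM in monoculture EpCAM+ against 174 ± 5.4 FPKM in monoculture EpCAM- cells, and to 230.1 ± 0.28 FPKM in coculture EpCAM+ against 138 ± 1.1 FPKM in coculture EpCAM- cells, with Plxnb2 leading throughout. Semaphorins summed to 59.7 ± 3.6 FPKM in monoculture EpCAM+ and 57.2 ± 2.1 FPKM in monoculture EpCAM- cells, which is within their spread, and to 65.4 ± 4.1 FPKM in coculture EpCAM+ and 42.8 ± 1.9 FPKM in coculture EpCAM- cells. What differed within the semaphorins was the class. Class 4 made up 39.8 FPKM and class 3 made up 13.7 FPKM in monoculture EpCAM+ cells, against 9.20 FPKM of class 4 and 44.0 FPKM of class 3 in monoculture EpCAM- cells. In coculture the same split was 47.5 FPKM of class 4 and 11.6 FPKM of class 3 in EpCAM+ cells, against 9.40 FPKM of class 4 and 26.9 FPKM of class 3 in EpCAM- cells. All these sums are of FPKM without further scaling. Scaling by the median of ratios, used below, divides monoculture EpCAM+ libraries by 1.08 and monoculture EpCAM- libraries by 0.909 and 0.902. In coculture it divides EpCAM+ libraries by 1.125 and 1.126, and EpCAM- libraries by 0.917 and 0.919. The sums were not recomputed with it, so small differences between them, as for the plexins in monoculture, are not firm.

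**Figure D1:**
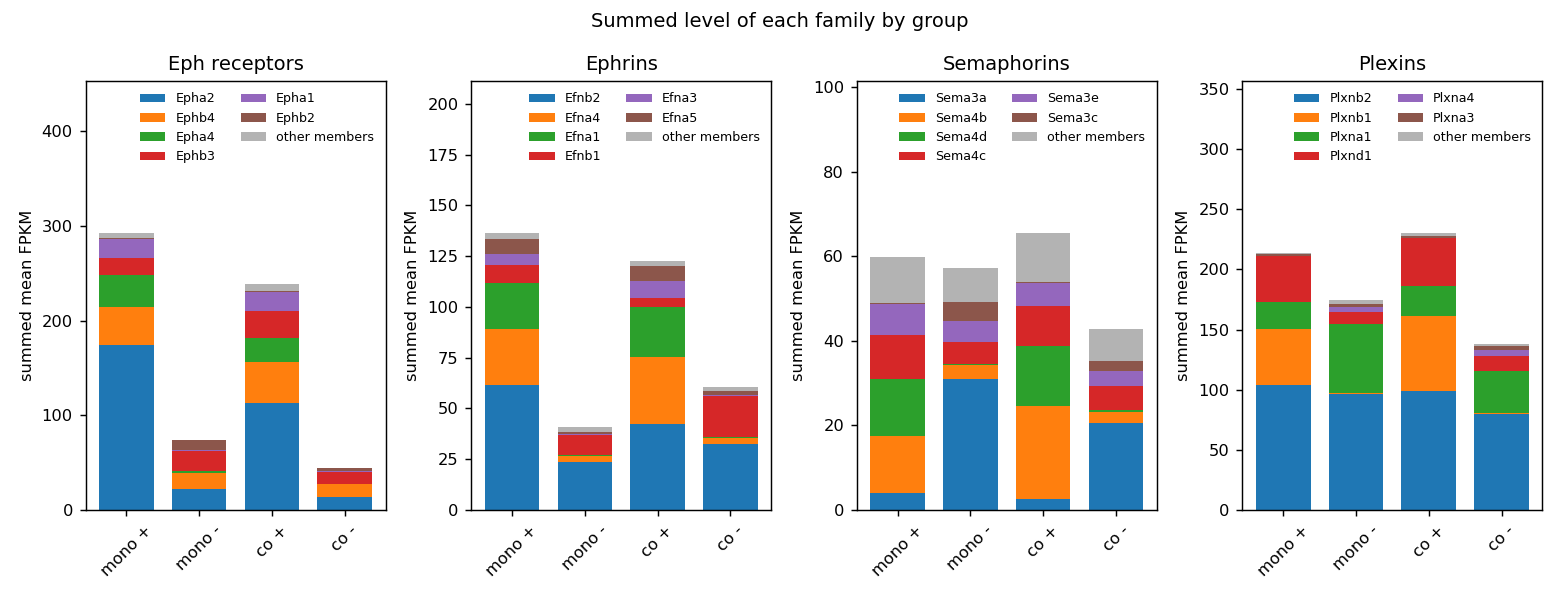
Stacked mean FPKM (vertical axis, starting at 0) of the 6 highest members of each family and of its other members, by group; mono and co stand for monoculture and coculture, and + and - for EpCAM+ and EpCAM- cells, with the mean of 2 libraries per bar. Epha2 fills much of the Eph receptor bars, and Sema3a takes in the EpCAM- cells the place that Sema4b and Sema4d have in the EpCAM+ cells.

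Of the 51 members, 35 stood at 1 FPKM or above in 2 or more libraries and entered the test, among 12012 genes, which was limma on log2(FPKM + 1). A call needs an adjusted p under 0.05, and the counts below ask in addition for a change of at least 2-fold on that scale. This scale understates the change of genes with low values. A member that passed the filter only through the group where it is high had to differ, so the counts are descriptions of the 35 and not support for a difference of the families from other genes. EpCAM+ against EpCAM- cells gave 17 members higher and 6 lower in monoculture, beside 15.5% of all tested genes higher and 12.6% lower (28.1% in all). In coculture 18 were higher and 7 lower, beside 16.5% and 10.1% of all tested genes (26.5% in all). The smallest adjusted p among these was 5.89e-12 in monoculture and 7.26e-12 in coculture, and the largest 2.98e-07 and 2.32e-06 (limma). Without the size limit, 21 were higher and 13 lower in monoculture and 23 higher and 10 lower in coculture, where 87.9% of all tested genes were called in monoculture (55.4% higher and 32.4% lower) and 87.2% in coculture (59.2% higher and 28.0% lower). The median log2 fold change of the 35 was 0.87 in monoculture and 1.07 in coculture, beside 0.23 and 0.26 over all tested genes. With scaling by the median of ratios, which shifts the median of all genes by -0.22 in monoculture and -0.26 in coculture, the members split into 16 higher and 6 lower in monoculture, and 17 higher and 8 lower in coculture. The split of all genes moved with it, to 1431 higher and 1831 lower in monoculture, against 1860 and 1512 without that scaling, and to 1482 higher and 1505 lower in coculture, against 1976 and 1212.

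Across the cultures, 16 members were higher in EpCAM+ cells at 2-fold in both, and 4 were lower in both, beside 11.8% of all tested genes higher and 8.42% lower in both. The first set held 4 EphA receptors (Epha1, Epha2, Epha4 and Epha7), 2 EphB receptors (Ephb4 and Ephb6), 4 ephrin-A ligands (Efna1, Efna3, Efna4 and Efna5), 2 plexins (Plxnb1 and Plxnd1) and 4 membrane-spanning semaphorins (Sema4b, Sema4d, Sema4f and Sema6a). The second set was Ephb2, Plxna4, Sema3a and Sema3c. All EphA receptors tested and all but 1 of the 5 ephrin-A ligands were in the first set, and no class 3 semaphorin was. Promoter windows from RefSeq, in its build GRCm38.p6, are printed for some members of both sets, for their level or their difference between the fractions. Each window runs from 250 bases before to 50 bases after a transcript start, and 59 windows matched 45 of the 51 members. Capitals mark matches, on either strand, to 3 short motifs of factors active in epithelial and mesenchymal cells: CAGGTG, the E-box of the ZEB and SNAI repressors, TGANTCA, the AP-1 site, and GGAATG, the TEAD site. No match of one motif overlapped another in the windows printed. On the log2 scale Efna1, Epha4 and Sema4d differed more between the fractions than Epha2 in both cultures, and their windows are not printed. Those of Efna1 and Epha4 hold none of the 3 motifs, and 1 of the 3 windows of Sema4d holds the AP-1 site.

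**Figure D2:**
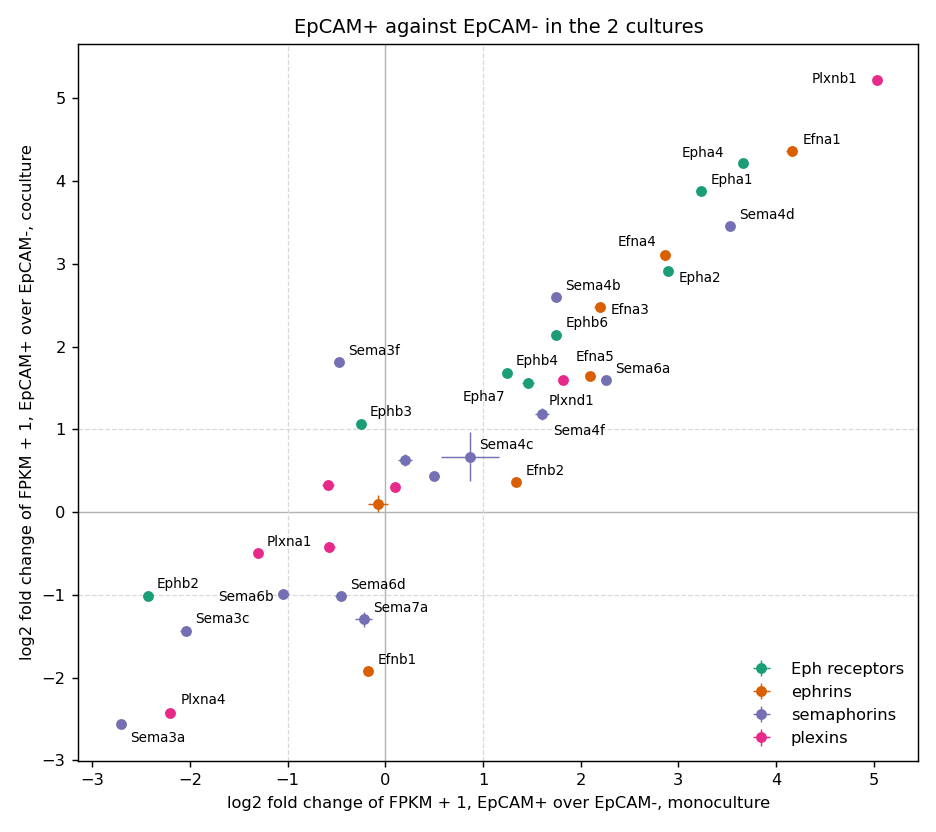
Log2 fold change of FPKM + 1, EpCAM+ over EpCAM-, in monoculture (horizontal) and coculture (vertical) for the 35 tested members; error bars are limma standard errors, most smaller than the point, and dashed lines mark 2-fold. Plxnb1 and Efna1 lie farthest to the upper right, Sema3a farthest to the lower left, and Sema3f, Ephb3 and Efnb1 lie off the diagonal.

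All 4 EphA receptors tested were higher in EpCAM+ cells. Epha2, a receptor of ephrin-A1 that many carcinomas carry at high levels (GENCODE M21 on GRCm38, chr4:141301240-141329384, plus strand), stood at 176 and 173 FPKM in monoculture EpCAM+ against 22.6 and 22.8 FPKM in monoculture EpCAM- cells. It stood at 113 and 114 FPKM in coculture EpCAM+ against 14.0 and 14.2 FPKM in coculture EpCAM- cells. All 4 EpCAM+ libraries lay above all 4 EpCAM- libraries, and Epha2 was the highest of all 51 members in monoculture EpCAM+ cells. Its log2 fold change was 2.89 ± 0.022 (SE) in monoculture and 2.92 ± 0.022 in coculture, with adjusted p of 5.89e-12 and 7.39e-12 (limma). In FPKM this was 7.69-fold and 8.03-fold.

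Epha4, which binds ephrins of both classes, had 33.6 and 33.5 FPKM in monoculture EpCAM+ against 1.73 and 1.74 FPKM in monoculture EpCAM- cells. In coculture it had 25.2 and 25.0 FPKM in EpCAM+ against 0.407 and 0.381 FPKM in EpCAM- cells. The fractions did not overlap, and the EpCAM- cells of coculture held less than those of monoculture. The log2 fold change of Epha4 was 3.66 in monoculture and 4.22 in coculture. Epha1, another ephrin-A receptor of epithelial tissue, had 20.1 and 19.3 FPKM in monoculture EpCAM+ against 1.25 and 1.15 FPKM in monoculture EpCAM- cells. In coculture Epha1 had 20.1 and 20.1 FPKM in EpCAM+ against 0.476 and 0.398 FPKM in EpCAM- cells. The 4 EpCAM+ libraries lay close together, at 19.3 to 20.1 FPKM, and far above the rest, and the log2 fold changes were 3.23 and 3.88. Exons of Epha1 share 6.01% of their bases with exons of Zyx on the opposite strand. Zyx ran the other way, at 189.9 ± 0.61 FPKM in monoculture EpCAM+ against 386 ± 9.4 FPKM in monoculture EpCAM- cells, and at 117 ± 2.3 FPKM in coculture EpCAM+ against 269.5 ± 2.4 FPKM in coculture EpCAM- cells (SD, n = 2). Whether counting used the strand is not stated, so the low Epha1 values in EpCAM- cells cannot be told apart from reads of Zyx. Epha7 was low, at 1.91 and 1.65 FPKM in monoculture EpCAM+ against 0.00825 and 0.00778 FPKM in monoculture EpCAM- cells, and at 2.05 and 1.95 FPKM in coculture EpCAM+ against 0.00468 and 0.0329 FPKM in coculture EpCAM- cells. The log2 fold change of Epha7 was 1.46 and 1.56, and its fold in FPKM is not given because the lower group lay at or near 0. The promoter windows of Epha2 (chr4:141300971-141301270 on the plus strand) and Epha1 (chr6:42373219-42373518 on the minus strand) are shown because Epha2 had the highest level of any member in monoculture EpCAM+ cells and Epha1 was near the same level in all EpCAM+ libraries. The Epha2 window holds the TEAD motif at bases 8 and 195, and the Epha1 window holds TEAD at base 90 and the E-box at base 180, counted from 1 at the 5′ end.
Epha2: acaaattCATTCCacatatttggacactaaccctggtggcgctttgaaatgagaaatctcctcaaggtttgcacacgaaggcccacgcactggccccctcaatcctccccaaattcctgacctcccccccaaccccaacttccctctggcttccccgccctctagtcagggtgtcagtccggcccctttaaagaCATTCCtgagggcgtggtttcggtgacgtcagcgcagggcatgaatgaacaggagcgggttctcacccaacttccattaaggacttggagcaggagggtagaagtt
Epha1: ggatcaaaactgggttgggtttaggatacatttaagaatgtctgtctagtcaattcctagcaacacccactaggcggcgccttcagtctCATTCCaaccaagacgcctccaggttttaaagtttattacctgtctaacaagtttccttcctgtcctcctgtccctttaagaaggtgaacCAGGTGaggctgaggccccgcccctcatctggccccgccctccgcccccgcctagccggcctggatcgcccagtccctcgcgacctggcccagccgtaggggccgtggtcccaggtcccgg

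The EphB receptors did not share a direction. Ephb4, the receptor that prefers ephrin-B2, had 39.6 and 40.2 FPKM in monoculture EpCAM+ against 16.3 and 16.1 FPKM in monoculture EpCAM- cells. In coculture Ephb4 had 42.9 and 44.4 FPKM in EpCAM+ against 13.0 and 12.7 FPKM in EpCAM- cells. The EpCAM+ libraries were all higher, by 1.25 ± 0.028 and 1.69 ± 0.028 on the log2 scale. Ephb6, which lacks kinase activity, had 3.69 and 3.49 FPKM in monoculture EpCAM+ against 0.388 and 0.345 FPKM in monoculture EpCAM- cells, and 4.90 and 4.80 FPKM in coculture EpCAM+ against 0.283 and 0.358 FPKM in coculture EpCAM- cells. Its log2 fold changes were 1.75 and 2.15, again without overlap. Ephb2, a receptor of the ephrin-B ligands (chr4:136647539-136835988, minus strand), was the reverse, with 1.24 and 1.13 FPKM in monoculture EpCAM+ against 10.5 and 11.0 FPKM in monoculture EpCAM- cells. In coculture Ephb2 had 1.01 and 1.01 FPKM in EpCAM+ against 3.16 and 2.93 FPKM in EpCAM- cells, so that the difference was 9.07-fold in monoculture and 3.01-fold in coculture. On the log2 scale Ephb2 was at -2.43 ± 0.054 and -1.01 ± 0.054, and without the first coculture EpCAM- library the second value was -0.97. Ephb3, close in sequence to Ephb2 and also an ephrin-B receptor, had 18.4 and 17.3 FPKM in monoculture EpCAM+ against 20.96 and 21.8 FPKM in monoculture EpCAM- cells. In coculture Ephb3 had 28.5 and 28.9 FPKM in EpCAM+ against 13.4 and 12.9 FPKM in EpCAM- cells, so the fraction with the higher level was EpCAM- in monoculture and EpCAM+ in coculture. The log2 fold change was -0.25 ± 0.038 in monoculture (adjusted p = 3.18e-04, limma) and 1.07 ± 0.038 in coculture (adjusted p = 3.32e-08, limma), and the second value fell under 2-fold, to 0.79 to 0.98, under 3 other scalings. Among EphB receptors the highest was Ephb4 in both EpCAM+ groups and Ephb3 in monoculture EpCAM- cells, while in coculture EpCAM- cells Ephb3 and Ephb4 lay close together. The promoter window of Ephb2 (chr4:136835963-136836262 on the minus strand), the Eph receptor that was higher in EpCAM- cells of both cultures, holds the E-box at base 226.
Ephb2: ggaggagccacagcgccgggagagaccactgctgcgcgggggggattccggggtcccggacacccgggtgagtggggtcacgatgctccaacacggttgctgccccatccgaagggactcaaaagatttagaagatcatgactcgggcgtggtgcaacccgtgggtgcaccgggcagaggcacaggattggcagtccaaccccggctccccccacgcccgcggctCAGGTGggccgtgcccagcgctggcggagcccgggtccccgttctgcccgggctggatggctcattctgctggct

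**Figure D3:**
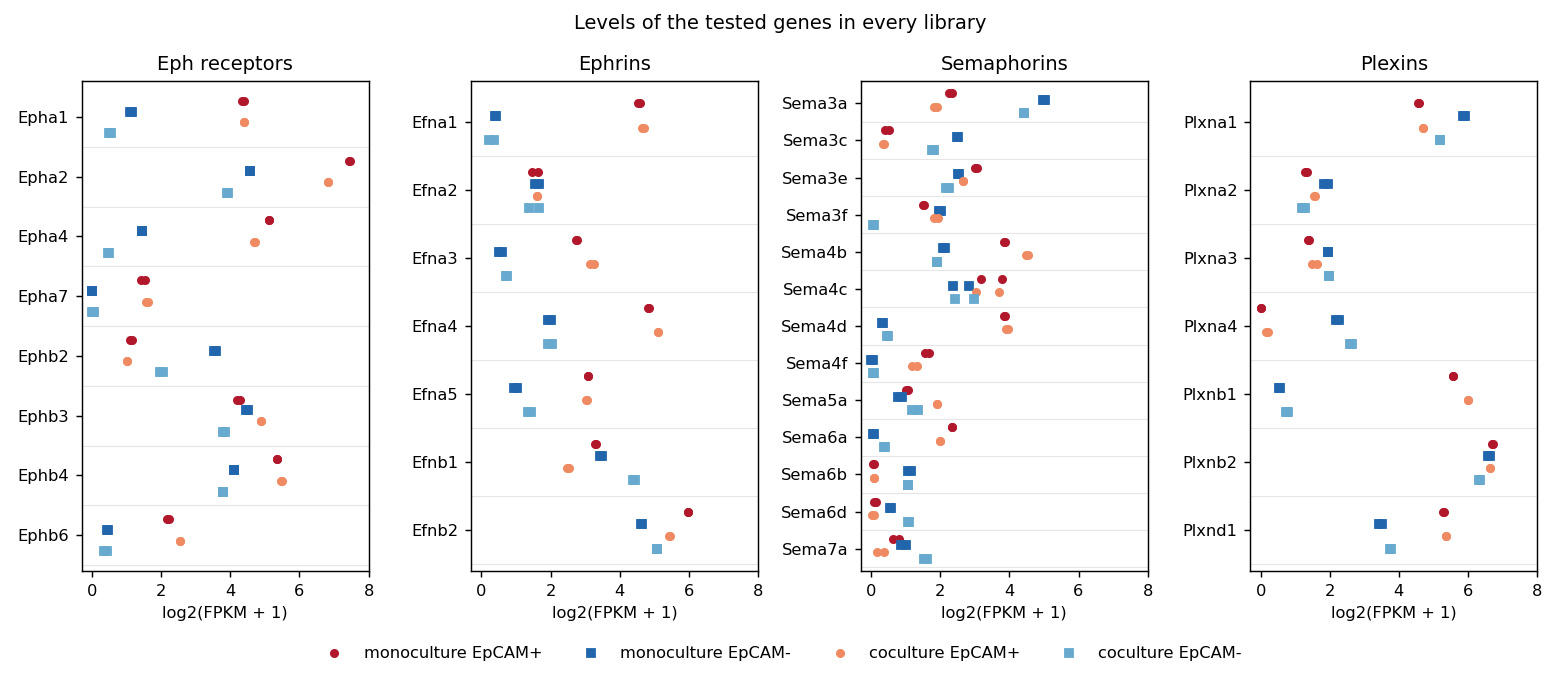
Log2(FPKM + 1) (horizontal) of the 35 tested members in each of the 8 libraries, by family; circles are EpCAM+ and squares EpCAM- libraries, dark for monoculture and light for coculture. Replicates lie on top of each other for most genes, and Sema4c is the member whose replicates lie apart in every group.

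Ephrin-A ligands were held by the EpCAM+ cells along with the EphA receptors. Efna1, the main ligand of Epha2, had 23.1 and 22.2 FPKM in monoculture EpCAM+ against 0.326 and 0.324 FPKM in monoculture EpCAM- cells. In coculture Efna1 had 25.1 and 23.7 FPKM in EpCAM+ against 0.174 and 0.296 FPKM in EpCAM- cells. No EpCAM- library reached 0.4 FPKM, and the log2 fold changes were 4.16 ± 0.059 and 4.36 ± 0.059. Efna4 was the highest ephrin-A in all groups, with 27.1 and 27.6 FPKM in monoculture EpCAM+ against 3.04 and 2.76 FPKM in monoculture EpCAM- cells. Coculture gave 33.1 and 33.3 FPKM in EpCAM+ against 3.13 and 2.82 FPKM in EpCAM- cells for Efna4, and the log2 fold changes were 2.86 and 3.10. Efna3 had 5.77 and 5.66 FPKM in monoculture EpCAM+ against 0.522 and 0.416 FPKM in monoculture EpCAM- cells, and 8.58 and 7.80 FPKM in coculture EpCAM+ against 0.645 and 0.654 FPKM in coculture EpCAM- cells. Its log2 fold changes were 2.19 and 2.48. Efna5 had 7.496 and 7.40 FPKM in monoculture EpCAM+ against 0.926 and 1.04 FPKM in monoculture EpCAM- cells, and 7.31 and 7.15 FPKM in coculture EpCAM+ against 1.56 and 1.69 FPKM in coculture EpCAM- cells. Here the EpCAM- cells kept more than 0.9 FPKM in every library, and the log2 fold changes were 2.09 and 1.65. Efna2 was the exception, at 1.57 to 2.17 FPKM over all 8 libraries with the fractions overlapping. Its log2 fold change was -0.07 in monoculture (adjusted p = 0.531, limma) and 0.10 in coculture (adjusted p = 0.37, limma). Efna1, Efna3 and Efna4 are neighbours in 66.3 kb of chromosome 3 (GRCm38, chr3:89271733-89338028). The tested genes of chromosome 3 had a median log2 fold change of 0.52 in monoculture and 0.53 in coculture, beside 0.23 and 0.26 over all tested genes, and the part of this in the values of the 3 ligands was not tested. Exons of Gm15998 on the opposite strand share 14.1% of the exon bases of Efna3, and those of 4731419I09Rik share 10.5% of the exon bases of Efna4.

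Of the 2 ephrin-B ligands tested, partners of the EphB receptors, Efnb2 was higher in EpCAM+ cells of both cultures and Efnb1 was lower. Efnb2, the highest ephrin, had 61.7 and 61.5 FPKM in monoculture EpCAM+ against 24.0 and 23.4 FPKM in monoculture EpCAM- cells. In coculture Efnb2 had 42.7 and 42.1 FPKM in EpCAM+ against 32.4 and 32.8 FPKM in EpCAM- cells. The EpCAM+ libraries were higher in both, by 1.34 ± 0.024 on the log2 scale in monoculture and by 0.37 ± 0.024 in coculture, where the change was under 2-fold. The coculture value of Efnb2 lay only 0.11 above the median of all tested genes, 0.26, so its size depends on the scaling. Efnb1 (chrX:99136130-99148991, plus strand) had 8.72 and 8.88 FPKM in monoculture EpCAM+ against 10.3 and 9.85 FPKM in monoculture EpCAM- cells, a small difference of -0.17 ± 0.040 on the log2 scale (adjusted p = 0.00382, limma). In coculture Efnb1 had 4.73 and 4.50 FPKM in EpCAM+ against 20.6 and 19.9 FPKM in EpCAM- cells, 4.39-fold lower in EpCAM+ cells, at -1.92 ± 0.040 on the log2 scale. Efnb3, untested, ranged from 0.138 to 0.864 FPKM.

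Among plexins, Plxnb1 differed most between the fractions on the log2(FPKM + 1) scale. This receptor of Sema4d (GENCODE M21 on GRCm38, chr9:109095389-109119917, plus strand) had 46.6 and 46.4 FPKM in monoculture EpCAM+ against 0.451 and 0.464 FPKM in monoculture EpCAM- cells. In coculture Plxnb1 had 62.5 and 62.8 FPKM in EpCAM+ against 0.659 and 0.741 FPKM in EpCAM- cells. No EpCAM- library reached 0.8 FPKM, and the log2 fold changes, 5.03 ± 0.038 and 5.23 ± 0.038, were the largest of the 35 in both cultures (adjusted p = 6.62e-12 and 7.26e-12, limma). Plxnb2, a receptor of class 4 semaphorins, was the highest plexin everywhere, with 102 and 105 FPKM in monoculture EpCAM+ and 94.96 and 98.2 FPKM in monoculture EpCAM- cells. In coculture Plxnb2 had 98.9 and 98.5 FPKM in EpCAM+ and 79.0 and 80.4 FPKM in EpCAM- cells. These are small differences, at 0.10 and 0.30 on the log2 scale, and with scaling by the median of ratios the first turned to -0.16 and the second was 0.01, no longer called (adjusted p = 0.612, limma). The promoter window of Plxnb1 (chr9:109095186-109095485 on the plus strand) holds the TEAD motif at base 103, a GC content of 74.7% and 36 CpG. Over the windows of members the median GC content was 64.0% with 20 CpG, beside 52.7% and 7 CpG over all 32851 RefSeq windows.
Plxnb1: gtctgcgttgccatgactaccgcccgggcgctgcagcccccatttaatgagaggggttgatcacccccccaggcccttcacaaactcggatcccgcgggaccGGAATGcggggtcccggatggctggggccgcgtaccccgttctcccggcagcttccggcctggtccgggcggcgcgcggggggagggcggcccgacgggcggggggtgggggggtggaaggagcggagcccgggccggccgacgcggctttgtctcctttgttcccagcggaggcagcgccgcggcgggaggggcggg

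Plxnd1, the receptor of Sema3e, had 37.3 and 38.7 FPKM in monoculture EpCAM+ against 9.77 and 10.4 FPKM in monoculture EpCAM- cells. In coculture Plxnd1 had 40.1 and 39.8 FPKM in EpCAM+ against 12.5 and 12.5 FPKM in EpCAM- cells. Every EpCAM+ library was higher, by 1.82 and 1.60 on the log2 scale. The A plexins, which signal for class 3 semaphorins with neuropilins and bind class 6 semaphorins, were all lower in EpCAM+ cells of monoculture, 2 of the 4 at 2-fold. Of all tested genes, 32.4% were lower there at any size and 12.6% at 2-fold. Plxna1 had 22.7 and 22.9 FPKM in monoculture EpCAM+ against 56.3 and 59.4 FPKM in monoculture EpCAM- cells, and 24.8 and 24.7 FPKM in coculture EpCAM+ against 35.3 and 35.3 FPKM in coculture EpCAM- cells. The log2 fold change of Plxna1 was -1.31 ± 0.030 in monoculture and -0.49 ± 0.030 in coculture. Plxna4 had 0.0122 and 0.00537 FPKM in monoculture EpCAM+ against 3.50 and 3.801 FPKM in monoculture EpCAM- cells, and 0.164 and 0.122 FPKM in coculture EpCAM+ against 5.06 and 5.23 FPKM in coculture EpCAM- cells. The EpCAM+ level of Plxna4 was 0.240% of the EpCAM- level in monoculture and 2.78% in coculture, where the mesenchymal markers in EpCAM+ cells ran from 1.36% to 1.97% of theirs. Its log2 fold changes were -2.20 and -2.43. Plxna3 was lower in EpCAM+ cells by under 2-fold in both cultures, at -0.57 and -0.42. Plxna2 was at -0.59 in monoculture and 0.33 in coculture, and the second value, adjusted p 0.00114 (limma), missed the threshold with median-of-ratios scaling (0.14) and with quantile scaling. Plxnb3 and Plxnc1, a receptor of Sema7a, did not exceed 0.01223 FPKM in any library.

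The secreted class 3 semaphorins were led by Sema3a in EpCAM- cells. Sema3a, a repellent ligand of neuropilin-1 (chr5:13125414-13602565, plus strand), had 4.06 and 3.76 FPKM in monoculture EpCAM+ against 30.4 and 31.6 FPKM in monoculture EpCAM- cells. In coculture Sema3a had 2.53 and 2.74 FPKM in EpCAM+ against 20.3 and 20.6 FPKM in EpCAM- cells. The EpCAM+ cells were thus 7.92-fold and 7.77-fold lower, at -2.70 ± 0.047 and -2.56 ± 0.047 on the log2 scale. They held Sema3a at 12.6% of the EpCAM- level in monoculture and 12.9% in coculture. The mesenchymal markers stood at a median of 0.116% and 0.131% in the monoculture EpCAM+ libraries, and at 1.71% and 1.70% in the coculture ones. The source of Sema3a in EpCAM+ libraries was not tested. Sema3c had 0.425 and 0.336 FPKM in monoculture EpCAM+ against 4.63 and 4.75 FPKM in monoculture EpCAM- cells, and 0.296 and 0.265 FPKM in coculture EpCAM+ against 2.37 and 2.54 FPKM in coculture EpCAM- cells. Sema3c, a neuropilin ligand, was therefore lower in EpCAM+ cells, with log2 fold changes of -2.04 and -1.43. Sema3e, the ligand that binds Plxnd1 without a neuropilin, had 7.43 and 7.02 FPKM in monoculture EpCAM+ against 4.74 and 4.86 FPKM in monoculture EpCAM- cells. In coculture Sema3e had 5.36 and 5.30 FPKM in EpCAM+ against 3.53 and 3.803 FPKM in EpCAM- cells. It led class 3 in EpCAM+ cells and was higher there by under 2-fold, at 0.50 and 0.44, and the coculture value was 0.09 with quantile scaling. Sema3f, a ligand of neuropilin-2 (chr9:107681500-107710475, minus strand), had 1.92 and 1.83 FPKM in monoculture EpCAM+ against 3.08 and 2.91 FPKM in monoculture EpCAM- cells. In coculture Sema3f had 2.55 and 2.81 FPKM in EpCAM+ against 0.0577 and 0.0384 FPKM in EpCAM- cells. The EpCAM- cells thus held the most in monoculture and almost none in coculture, and the log2 fold change was -0.47 ± 0.056 in monoculture and 1.81 ± 0.056 in coculture. The RefSeq window of Sema3a (chr5:13396534-13396833 on the plus strand), the semaphorin with the highest EpCAM- level, lies at a start inside the GENCODE span of the gene and not at its first base, and other starts were not read. It holds none of the 3 motifs, a GC content of 41.3% and 2 CpG. The E-box was in 13.6% of member windows and 20.2% of all RefSeq windows, AP-1 in 5.08% and 7.81%, and TEAD in 11.9% and 14.7%.
Sema3a: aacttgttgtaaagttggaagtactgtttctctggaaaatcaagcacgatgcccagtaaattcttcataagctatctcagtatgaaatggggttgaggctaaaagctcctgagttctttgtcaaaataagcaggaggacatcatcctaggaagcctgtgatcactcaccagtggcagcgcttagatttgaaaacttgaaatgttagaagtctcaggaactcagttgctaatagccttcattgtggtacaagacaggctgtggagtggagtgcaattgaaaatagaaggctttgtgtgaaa

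Among the membrane-spanning semaphorins, Sema4b, Sema4d, Sema4f and Sema6a were higher in EpCAM+ cells of both cultures. Sema4d, the ligand of Plxnb1 (chr13:51685529-51793747, minus strand), had 13.5 and 13.7 FPKM in monoculture EpCAM+ against 0.274 and 0.253 FPKM in monoculture EpCAM- cells. In coculture Sema4d had 14.5 and 13.9 FPKM in EpCAM+ against 0.405 and 0.366 FPKM in EpCAM- cells. Ligand and receptor were therefore both above 13 FPKM in all EpCAM+ libraries and below 1 FPKM in all EpCAM- libraries, and the log2 fold changes of Sema4d were 3.53 ± 0.045 and 3.46 ± 0.045. Sema4b had 13.2 and 13.7 FPKM in monoculture EpCAM+ against 3.37 and 3.23 FPKM in monoculture EpCAM- cells, and 22.4 and 21.4 FPKM in coculture EpCAM+ against 2.78 and 2.76 FPKM in coculture EpCAM- cells. This gave log2 fold changes of 1.75 and 2.60. Sema6a, a ligand of Plxna2 and Plxna4, had 4.09 and 4.04 FPKM in monoculture EpCAM+ against 0.0714 and 0.0470 FPKM in monoculture EpCAM- cells, and 2.96 and 3.00 FPKM in coculture EpCAM+ against 0.309 and 0.321 FPKM in coculture EpCAM- cells. Its log2 fold changes were 2.26 and 1.60, opposite to those of Plxna4. Plxna2 was at -0.59 in monoculture and at 0.33 in coculture, there in the direction of Sema6a. That coculture value of Plxna2 was 0.14 with median-of-ratios scaling and 0.0063 with quantile scaling, called in neither, so its direction is not firm. Sema4f had 2.22 and 1.96 FPKM in monoculture EpCAM+ against 0 and 0.0323 FPKM in monoculture EpCAM- cells, and 1.27 and 1.54 FPKM in coculture EpCAM+ against 0.0540 and 0.0503 FPKM in coculture EpCAM- cells. Sema4f was at 1.60 and 1.19 on the log2 scale, the second value falling to 0.97 with quantile scaling.

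Sema4c, a ligand of Plxnb2, could not be placed as firmly as the rest. It had 12.8 and 8.04 FPKM in monoculture EpCAM+ against 4.18 and 6.19 FPKM in monoculture EpCAM- cells, and 11.9 and 7.25 FPKM in coculture EpCAM+ against 4.37 and 6.81 FPKM in coculture EpCAM- cells. The EpCAM+ libraries were higher without overlap in each culture, but the second coculture pair lay close. The log2 fold change was 0.87 ± 0.30 in monoculture (adjusted p = 0.0233, limma) and 0.67 ± 0.30 in coculture (adjusted p = 0.0618, limma). With scaling by the median of ratios the monoculture value was 0.65, adjusted p 0.071 (limma).

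Low members outside the rule for naming were Sema6b, Sema6d, Sema5a and Sema7a, which are named after their values were seen. Sema6b had 0.0623 and 0.0411 FPKM in monoculture EpCAM+ against 1.24 and 1.09 FPKM in monoculture EpCAM- cells, and 0.0637 and 0.0589 FPKM in coculture EpCAM+ against 1.11 and 1.11 FPKM in coculture EpCAM- cells. The log2 fold change of Sema6b was -1.04 in monoculture and -0.99 in coculture, on either side of the 2-fold limit, and without the first monoculture EpCAM- library the first was -0.99. Sema6d had 0.0525 and 0.111 FPKM in monoculture EpCAM+ against 0.463 and 0.505 FPKM in monoculture EpCAM- cells, and 0.0719 and 0.0225 FPKM in coculture EpCAM+ against 1.14 and 1.09 FPKM in coculture EpCAM- cells. It was lower in EpCAM+ cells, at -0.46 and -1.02, and without the second coculture EpCAM+ library the second was -0.98. Sema7a, the lipid-anchored semaphorin, had 0.747 and 0.542 FPKM in monoculture EpCAM+ against 0.998 and 0.833 FPKM in monoculture EpCAM- cells, and 0.290 and 0.135 FPKM in coculture EpCAM+ against 2.06 and 1.88 FPKM in coculture EpCAM- cells. Its log2 fold change was -0.22 in monoculture and -1.30 in coculture. Sema5a ranged from 0.72 to 2.77 FPKM, and its changes were under 2-fold on the log2(FPKM + 1) scale.

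Untested were 16 members. Epha6, Epha8 and Ephb1 were listed at 0 in every library, and Epha3, Epha5 and Epha10 did not pass 0.0684 FPKM. Sema3b, Sema3d, Sema3g, Sema4a, Sema4g, Sema5b and Sema6c had a highest value between 0.077 and 0.60 FPKM. With Efnb3, Plxnb3 and Plxnc1 these account for all members not tested. By the mean of their group, 30 members reached 1 FPKM in monoculture EpCAM+ and 23 in monoculture EpCAM- cells, with 30 in coculture EpCAM+ and 24 in coculture EpCAM- cells. Over all genes, counted per library, 10847 and 10840 reached 1 FPKM in monoculture EpCAM+ and 10682 and 10705 in monoculture EpCAM- cells. In coculture these were 11119 and 11101 in EpCAM+ and 10660 and 10634 in EpCAM- cells.

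Monoculture against coculture gave smaller differences than the fractions. In EpCAM+ cells 0 of the 35 members changed by 2-fold at an adjusted p under 0.05 (limma) on the log2(FPKM + 1) scale, beside 1.94% of all tested genes, 0.266% higher and 1.67% lower. With a pseudocount of 0.1 in place of 1, 1 member was higher and 2 were lower. At any size 10 were higher and 13 lower in monoculture, which is also the count at an unadjusted p under 0.05, where 51.4% of all tested genes were called, 16.4% higher and 34.9% lower. The largest were Efnb1, at 0.80 ± 0.040, and Sema5a, at -0.87 ± 0.070, which in FPKM was 2.60-fold lower in monoculture. Efnb1 had 8.72 and 8.88 FPKM in monoculture against 4.73 and 4.50 FPKM in coculture EpCAM+ cells. Epha2 followed in that direction, at 0.62 ± 0.022, with Efnb2 at 0.53 and Epha4 at 0.41. Lower in monoculture were Sema4b, at -0.66, Ephb3, at -0.65, Efna3, at -0.45, and Plxnb1, at -0.42. The median of the 35 was -0.06, the same as that of all tested genes.

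In EpCAM- cells, 2 members were higher in monoculture at 2-fold, Sema3f and Ephb2, and none was lower on the log2(FPKM + 1) scale, beside 2.56% of all tested genes higher and 1.96% lower (4.52% in all). With a pseudocount of 0.1, 4 were higher and 4 lower. Sema3f had 3.08 and 2.91 FPKM in monoculture against 0.0577 and 0.0384 FPKM in coculture EpCAM- cells, a log2 fold change of 1.93 ± 0.056 (adjusted p = 8.04e-08, limma). Ephb2 had 10.5 and 11.0 FPKM in monoculture against 3.16 and 2.93 FPKM in coculture EpCAM- cells, 3.55-fold and 1.54 ± 0.054 on the log2 scale (adjusted p = 2.01e-07, limma). At any size 14 were higher and 12 lower, where 62.7% of all tested genes were called. Of the 8 Eph receptors tested, 6 were higher in monoculture EpCAM- cells and 0 lower, with Epha4 at 0.97, Ephb3 at 0.66, Epha2 at 0.65, Epha1 at 0.61 and Ephb4 at 0.32 beside Ephb2, where 32.4% of all tested genes were higher. The Epha1 values in EpCAM- cells cannot be told apart from reads of Zyx. Zyx was also higher there in monoculture, at 386 against 269.5 FPKM in coculture. Of the 7 ephrins, 0 were higher and 4 were lower, led by Efnb1 at -0.94 ± 0.040, with 30.3% of all tested genes lower. With quantile scaling Efna3 was no longer among the 4. Efnb1 stood at 10.3 and 9.85 FPKM in monoculture against 20.6 and 19.9 FPKM in coculture EpCAM- cells. Sema7a was lower in monoculture, at -0.63, and Sema3a, Sema3c, Plxna1 and Plxna2 higher by 0.58, 0.72, 0.70 and 0.66.

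**Figure D4:**
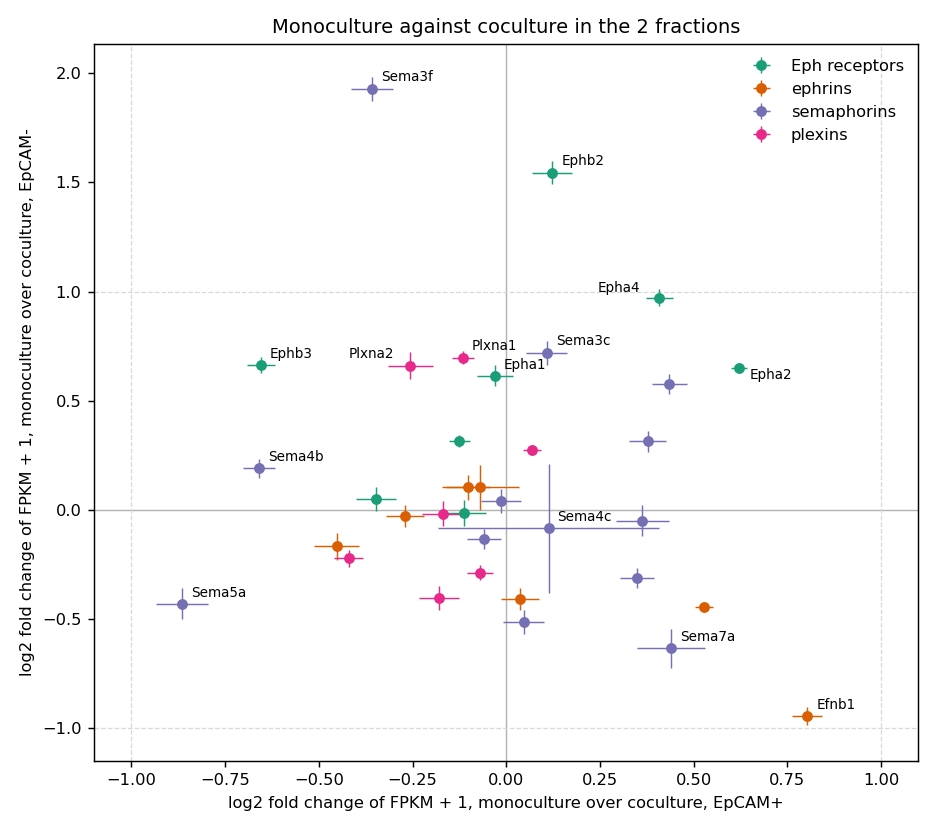
Log2 fold change of FPKM + 1, monoculture over coculture, in EpCAM+ (horizontal) and EpCAM- (vertical) cells for the 35 tested members; error bars are limma standard errors and dashed lines mark 2-fold. Sema3f and Ephb2 stand above the 2-fold line of the EpCAM- axis, and Efnb1 lies in the lower right corner, higher in monoculture in EpCAM+ and lower in EpCAM- cells.

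The difference between the culture effects of the fractions, the interaction, takes the monoculture over coculture change in EpCAM- cells from that in EpCAM+ cells. It was 2-fold or more for 5 of the 35 members, 2 higher and 3 lower, beside 2.43% and 5.66% of all tested genes (8.09% in all). Efnb1 was the highest, at 1.75 ± 0.057 (adjusted p = 2.59e-07, limma), its monoculture level being higher than the coculture level in EpCAM+ cells and lower in EpCAM- cells. Sema3f was the lowest, at -2.29 ± 0.079 (adjusted p = 3.18e-07, limma). Ephb2 was at -1.42 ± 0.076 and Ephb3 at -1.32 ± 0.053, with adjusted p of 2.56e-06 and 6.52e-07 (limma). Ephb3 moved in opposite directions, at -0.65 in EpCAM+ and 0.66 in EpCAM- cells. Sema7a was at 1.07 ± 0.13, adjusted p 1.80e-04 (limma), and under 2-fold, at 0.98, when the first monoculture EpCAM+ or the second coculture EpCAM+ library was left out. Efnb2, at 0.97, came next among the higher ones, so that both ephrin-B ligands tested had a higher ratio of EpCAM+ to EpCAM- level in monoculture. At any size 9 members were higher and 16 lower, where 65.2% of all tested genes were called, 26.0% higher and 39.2% lower.

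**Figure D5:**
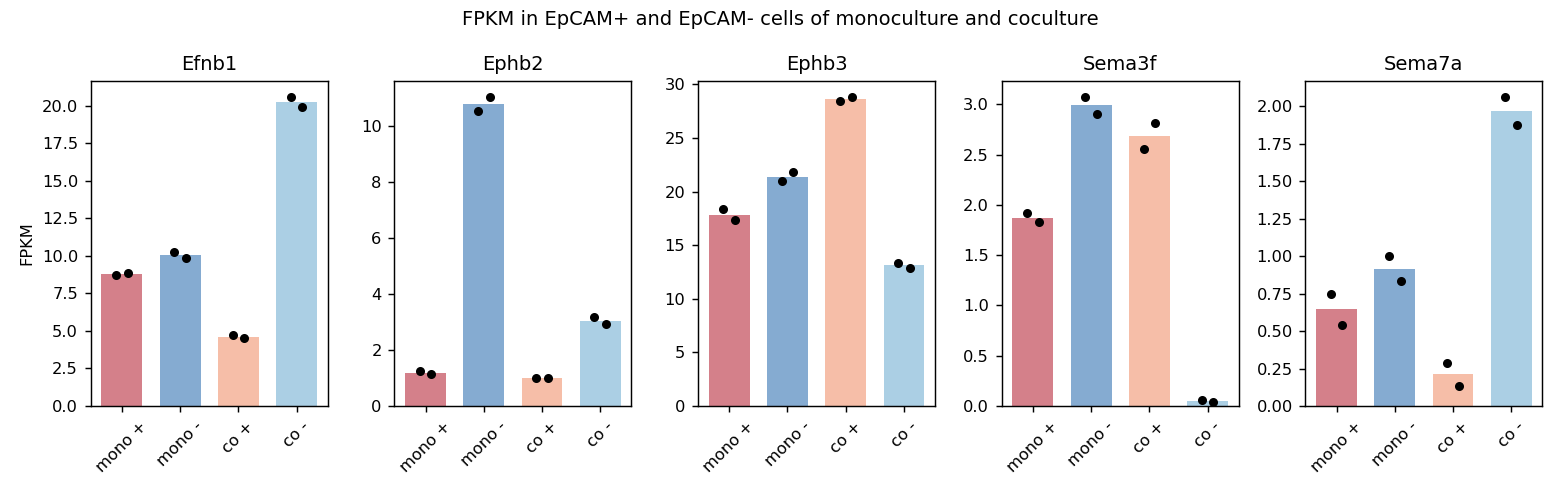
FPKM (vertical axes, each starting at 0) of the 5 members with an interaction of at least 2-fold; mono and co stand for monoculture and coculture, + and - for EpCAM+ and EpCAM- cells, bars are means of 2 libraries and points the libraries. Coculture EpCAM- cells hold the most Efnb1 and Sema7a and the least Sema3f and Ephb3, and monoculture EpCAM- cells hold the most Ephb2.

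Co-receptors and signalling partners of the families were read from lists of genes named for their roles. Of 7 tested semaphorin co-receptors and other semaphorin receptors, 3 were higher and 2 lower in EpCAM+ cells at 2-fold in monoculture, and 3 were higher and 3 lower in coculture, where of all tested genes 15.5% were higher and 12.6% lower in monoculture and 16.5% and 10.1% in coculture. Nrp1, the neuropilin that Sema3a needs, had 20.5 and 20.3 FPKM in monoculture EpCAM+ against 44.0 and 45.6 FPKM in monoculture EpCAM- cells, and 13.0 and 13.0 FPKM in coculture EpCAM+ against 32.9 and 32.7 FPKM in coculture EpCAM- cells. Receptor and ligand were thus both lower in EpCAM+ cells, with log2 fold changes for Nrp1 of -1.10 and -1.27, though Nrp1 stayed above 12 FPKM in every library. Nrp2 was lower too, at -0.83 and -0.75. Higher in EpCAM+ cells were L1cam, an adhesion molecule that takes part in Sema3a signalling, at 3.05 and 2.89, and Met, the HGF receptor that pairs with Plxnb1, at 1.61 and 2.13. Itga1, a chain of a collagen-binding integrin that also binds Sema7a, was lower, at -2.82 and -1.43. It was higher in monoculture than in coculture EpCAM- cells by 1.36.

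Of 20 tested genes of plexin signalling, 1 was higher and 6 were lower in EpCAM+ cells at 2-fold in monoculture, and 1 and 7 in coculture, with 28.1% and 26.5% of all tested genes called at 2-fold in monoculture and coculture. Mical1 and Mical2, enzymes that take actin apart by oxidation, were at -4.43 and -3.99 in monoculture and at -4.06 and -4.64 in coculture. Dpysl3, a collapsin response mediator, was at -3.76 and -4.66, and the kinase Fyn at -2.98 and -2.68. Dpysl5, of the same family as Dpysl3, went the other way. It had 2.54 and 2.52 FPKM in monoculture EpCAM+ against 0.0115 and 0.00780 FPKM in monoculture EpCAM- cells. In coculture Dpysl5 had 3.64 and 3.25 FPKM in EpCAM+ against 0.0214 and 0.00592 FPKM in EpCAM- cells. Of 21 tested genes of Eph and ephrin signalling, 6 were higher and 1 lower in monoculture and 7 and 1 in coculture, beside the same shares of all tested genes. They were led by the adaptor Grb7, at 3.56 and 4.08. The median log2 fold change of the plexin signalling genes was -0.47 in monoculture and -0.14 in coculture, and that of the Eph and ephrin signalling genes 0.47 and 0.57, beside 0.23 and 0.26 over all tested genes.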

How the data were processed

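Total RNA of 8 libraries of MCa-P1362 cells was sequenced as read pairs of 150 bases, per the labels' protocols. The authors deposited FPKM per gene, 1 file per library, per the file headers. Per the submitters' processing notes, FastQC, cutadapt, HISAT2, SAMtools, HTSeq and edgeR were used with the build mm10. Versions, annotation, strand setting and the treatment of reads shared between genes are, however, not stated in any source used here. Depth in reads is unknown, so no counting interval or detection limit is given.

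Genes of at least 1 FPKM in 2 libraries or more (12012 of 24421) were fitted as log2(FPKM + 1) with limma 3.58.1 in R 4.3.3, as means of the 4 groups over 8 libraries with 4 residual degrees of freedom and eBayes with trend. The Benjamini-Hochberg adjustment ran over all tested genes, with two-sided tests. Exact permutation of 2 against 2 libraries reaches p = 0.333 at best, so the spread was pooled. The fit was tested on simulated data. The members, partner lists and tests were chosen with earlier results of these data known. Named in full are members called at 2-fold in any comparison whose mean in some group was 2 FPKM or higher (25 genes). Partners named are up to 4 of each list with the largest changes, and the neuropilins were added. Dpysl5 was named after its values were seen. Positions and exon overlaps come from GENCODE M21 (GRCm38) and promoter windows from RefSeq. Results were recomputed with pseudocounts of 0.1 and 0.5, with no filter or one of 5 FPKM, with 3 scalings (constant sum, median of ratios, quantiles), with eBayes without trend, with a replicate block, with the other fraction's share subtracted, with the 4 compared libraries alone, and without each library in turn. Tables were made with Python 3.11.15 and pandas 2.3.3.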

Additional observations from a re-analysis of the deposited data

Results flagged for a closer look

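For 5 members the change between cultures differed between EpCAM+ and EpCAM- cells by a test of that difference, the interaction in limma, at an adjusted p under 0.05 and at least 2-fold. For Efnb1, an ephrin-B ligand, the interaction was 1.75 on the log2 scale, with monoculture at 0.80 against coculture in EpCAM+ and at -0.94 in EpCAM- cells. For Ephb2, an ephrin-B receptor, it was -1.42, with 0.12 in EpCAM+ and 1.54 in EpCAM- cells. For Ephb3 it was -1.32, with -0.65 and 0.66. For Sema3f, a secreted ligand, it was -2.29, with -0.36 and 1.93. For Sema7a, whose highest mean was 1.97 FPKM, it was 1.07, with 0.44 and -0.63. All 5 kept their direction and an adjusted p under 0.05 (limma) under every alternative in which they were tested, and Sema7a fell under 2-fold without either of 2 libraries.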

How the results depend on the processing

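Each of the 55 fold changes called at 2-fold for a member was recomputed under 19 alternatives, of which the filter of 5 FPKM left 38, the fit of only the 4 libraries compared 50, and the fits without the first or without the second coculture EpCAM- library 52 each. None changed direction, 1007 of the values kept their call and 10 fell under 2-fold while the adjusted p stayed under 0.05. These were Ephb4 in monoculture (0.9986, median of ratios), Ephb3 in coculture (0.98 with a constant sum, 0.79 with the median of ratios, 0.85 with quantiles), Sema4f in coculture (0.97, quantiles), and 5 values with a library left out, of Sema6b, Ephb2, Sema6d and, for 2 libraries, Sema7a. Counts at 2-fold moved with the pseudocount and the filter. With a pseudocount of 0.1, monoculture against coculture gave 1 member higher and 2 lower in EpCAM+ cells (1 lower with 0.5), against 0 and 0. It gave 4 higher and 4 lower in EpCAM- cells, against 2 and 0, and the interaction had 4 higher and 6 lower, against 2 and 3. With the filter of 5 FPKM, which removes low members from the test, 4 members were lower in EpCAM+ cells in coculture against 7, 1 was higher in monoculture EpCAM- cells against 2, and 1 was higher in the interaction against 2. Leaving out libraries gave 4 to 7 members lower in EpCAM+ cells in coculture, with 4 without the first coculture EpCAM- library, and 1 to 2 higher in the interaction, with 1 without the first monoculture EpCAM+, the second coculture EpCAM+ or either coculture EpCAM- library. Where a coculture EpCAM- library is left out, low members leave the test. The other ranges were 17 to 18 higher and 5 to 6 lower in monoculture and 18 to 18 higher in coculture. Quantile scaling split all 2-fold genes into 49 higher and 152 lower for the cultures in EpCAM+ cells (32 and 201 without it), 370 and 495 for the interaction (292 and 680), and 1437 and 1556 for the fractions in coculture, and shifted the median of the interaction by 0.11. The replicate numbers did not pair the libraries, with correlations of their deviations between -0.073 and 0.041, and the fit with the replicate block gave the same counts of members, 17 higher and 6 lower in monoculture and 18 and 7 in coculture. It changed 1 call of any size, Plxna3 between cultures in EpCAM+ cells, to an adjusted p of 0.0581 (limma). Other settings also moved calls under 2-fold, so the counts at any size are not firm. With a pseudocount of 0.1 the interaction of Plxna4 turned from 0.22 to -0.67. That of Plxnb1 went from -0.20 to 0.09, no longer called. Between cultures in EpCAM+ cells, the median of ratios removed the calls of Ephb4, Plxna1 and Plxna3. Quantiles removed those of Plxna1, Plxna2, Plxna3, Plxna4 and Plxnb2 and added Efna5, Ephb2 and Sema3c. With 2 libraries a group and no read counts, values under about 1 FPKM have no stated precision.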

Other observations

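Other guidance systems of the same cells were read from a list of slit, netrin and repulsive guidance genes, 13 of which were tested. In EpCAM+ cells 2 were higher and 7 lower at 2-fold in monoculture, and 3 higher and 4 lower in coculture, beside 15.5% higher and 12.6% lower of all tested genes in monoculture and 16.5% and 10.1% in coculture. Slit3, a secreted ligand of the Robo receptors, had 0.00925 and 0.0135 FPKM in monoculture EpCAM+ against 18.04 and 17.6 FPKM in monoculture EpCAM- cells, and 0.0795 and 0.115 FPKM in coculture EpCAM+ against 3.60 and 3.41 FPKM in coculture EpCAM- cells. Its log2 fold change was -4.22 in monoculture and -2.04 in coculture, and monoculture was above coculture in EpCAM- cells by 2.06 (adjusted p = 3.15e-08, limma). Ntn1, the secreted netrin-1, was higher in EpCAM+ cells of monoculture by 2.08. It was higher there in coculture too, at 13.4 and 13.1 FPKM in EpCAM+ against 5.73 and 5.42 FPKM in EpCAM- cells. Unc5c, a netrin receptor, was lower in both cultures, at -1.99 and -2.16.

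Sema4c had replicates that lay apart in every group, a feature noticed after its values were seen. The first library was higher than the second in monoculture EpCAM+ (1.59 times) and coculture EpCAM+ cells (1.64 times), and the second was higher than the first in monoculture EpCAM- (1.48 times) and coculture EpCAM- cells (1.56 times). Among genes at 5 FPKM or more, 0.220% to 0.323% had replicates as far apart, and the next member in each group differed by 1.03 to 1.10 times. Exons of D430040D24Rik on the opposite strand cover 7.27% of the exon bases of Sema4c.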
